A study of Mus musculus with 13 samples.

Results

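The circadian clock genes Clock, Per1, Per2, Per3, Cry1, Cry2, Nr1d1, Nr1d2, Dbp and Tef were read in quadriceps muscle as a check on the time at which the animals were sampled. Every probe set that the array annotation assigned to 1 of these 10 genes was taken. That gave 19 probe sets of 9 genes, out of 28898 probe sets of 17097 genes with 1 symbol. No probe set was named Nr1d1 in the annotation used here, so no value is given for it. Of the 19 probe sets, 15 (of 8 genes) had a mean signal of at least 4.90 on the log2 scale, the median over all non-control probe sets, and entered the tests. The 4 below it were 1 probe set each of Clock, Per2 and Per3, and the single probe set of Cry1.

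Each of the 13 arrays held the quadriceps RNA of a single animal, a C57Bl/6 male 4 months old, in 4 groups labelled SKM-Tg (n = 4), Wt (n = 3), SKM-KO (n = 3) and C (n = 3). The design names gain of function and ablation of DOR, an earlier name of Trp53inp2, in skeletal muscle, which are read here as SKM-Tg and SKM-KO. Trp53inp2 encodes a regulator of autophagosome formation and a coactivator of nuclear receptors. From the naming, Wt was taken as the control of SKM-Tg and C as the control of SKM-KO, since the labels do not pair them, and each such pair is called a line below. The labels name neither a promoter nor a Cre driver nor the number of founder lines. All mice lived under a 12 h dark-light period on standard chow, and no hour of sampling is stated for any of them. The part of the sampling hour in the values below was therefore not tested. Replicates are numbered in accession order, so their numbers name animals and pair nothing.

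The mammalian clock is a feedback loop of transcription that runs in nearly every cell and turns over about once a day. Clock and its partner Arntl (BMAL1) bind E-boxes and activate the Per and Cry genes, whose proteins then inhibit Clock and Arntl. Nr1d1 and Nr1d2 (REV-ERB alpha and beta) are nuclear receptors that repress Arntl, while Dbp, Tef and Hlf carry the rhythm to output genes through D-boxes. In mouse tissues the transcripts of Dbp, Nr1d2 and Per3 peak late in the day, and those of Arntl, Npas2, Clock and Nfil3 peak at roughly the opposite time. In skeletal muscle the clock is known for setting daily rhythms of fuel use.

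The stretches of the core promoters that hold the letters of an E-box or a D-box are printed here for the genes measured above the filter, since these are the elements named above. RefSeq windows of GRCm38.p6, from 250 bases before to 50 bases after a gene start, were found for 9 of the 10 genes (13 windows). The table held no window for Per2. Capitals mark the E-box CACGTG or the D-box TTATGTAA, and each sequence is written 5′ to 3′ on the strand of its gene.
Per1, chr11:69098763-69098810 (+): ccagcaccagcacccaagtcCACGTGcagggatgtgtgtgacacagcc
Tef, chr15:81802526-81802573 (+): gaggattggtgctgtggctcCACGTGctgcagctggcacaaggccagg
Tef, chr15:81811256-81811303 (+): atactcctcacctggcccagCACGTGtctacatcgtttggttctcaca
Per3, chr4:151044796-151044890 (-): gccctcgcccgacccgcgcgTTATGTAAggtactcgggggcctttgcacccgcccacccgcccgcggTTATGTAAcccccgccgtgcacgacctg

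The E-box began at position -166 from the gene start in Per1, and at -127 and -138 in the windows of 2 Tef starts. Cry1, the remaining gene with a match, held it at -60. In all, the palindrome CACGTG lay in 4 of the 13 windows, and in 7.15% of all 32851 windows of the table. The D-box, searched as TTATGTAA or TTACGTAA on both strands, was found in the Per3 window alone, where it began at -205 and again at -158. Of all windows, 1.06% held it. The core element of the ROR and REV-ERB receptors, TAGGTCA on either strand, lay in 0 of the 13 windows and in 2.61% of all. No matches overlapped each other. A match is a description of the letters in a short window, and an element outside the window would not be seen.

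The arrays differed in how far they lay from the rest. Around the median array, the interquartile range of all probe sets was 0.81 in Wt replicate 2, 0.42 in SKM-Tg replicate 3 and 0.15 to 0.30 in the other arrays. Wt replicate 2 was the highest or lowest of the 13 arrays in 62.9% of all probe sets tested, against 5.7 to 14.4% for the other arrays. The difference between 3′ and 5′ control probe sets of Gapdh lay between 0.23 and 0.30 in all arrays, and that of Actb between -0.31 and -0.15. All 10 skeletal muscle markers (Acta1, Ckm and others) were bright, at or above the 99.7 percentile of all probe sets, so the tissue label held. Trp53inp2 averaged 8.79 ± 0.21 in SKM-KO and 11.13 ± 0.06 in C (log2 signal, SD, n = 3 each) and was lower in SKM-KO by a log2 difference of -2.35 (limma adjusted p = 1.07e-05). In SKM-Tg it averaged 11.17 ± 0.11 (SD, n = 4), against 11.22 ± 0.23 in Wt (SD, n = 3). The interval of that difference, -0.33 to 0.22, shows no gain in the arrays labelled SKM-Tg, which goes against a reading of the label as raised Trp53inp2. Whether the probe set would see the transgene is not given in the sources used here, so "SKM-Tg" stands throughout for the arrays with that label.

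No clock gene passed the threshold under ablation. In SKM-KO against C, 0 of 15 clock probe sets passed an adjusted p of 0.05 in limma with Benjamini-Hochberg adjustment, where 0.0133% of all 22519 probe sets did. Also 0 of 15 had an unadjusted p under 0.05, against 0.44% of all. That share lies far below the level of 0.05 itself, so this comparison made few calls of any kind. The log2 differences ran from -0.21 (Per3) to 0.16 (Cry2), with 7 above 0 and 8 below, against 54.6% above 0 among all probe sets. Their median was -0.04, against 0.01 over all. The 95% intervals reached from -0.78 to 0.68 at their widest, both for Nr1d2 1416958_PM_at. The fit pools the spread of all 4 groups. For this probe set the SD was 0.22 in SKM-KO and 0.05 in C, against 0.34 in SKM-Tg and 0.89 in Wt. Arrays outside the comparison thus widened the interval, and its SE of 0.34 fell to 0.21 without Wt replicate 2. A change of the size of either bound was not excluded for Nr1d2 by this fit. All 3 Clock probe sets lay on the positive side (0.06 to 0.12), and all 4 Per3 probe sets on the negative side (-0.21 to -0.07). For 1 clock probe set, Nr1d2 1416959_PM_at, the highest SKM-KO array was lower than the lowest C array, a pattern seen in 2.75% of all probe sets, and for 0 the groups were apart in the other direction (4.54% of all).

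The arrays labelled SKM-Tg also differed from Wt in no clock probe set past the threshold. Adjusted and unadjusted limma p-values under 0.05 were found for 0 of 15, against 0% and 6.43% of all probe sets. The differences ran from -0.25 (Per1) to 0.48 (Nr1d2), and the intervals from -0.74 to 1.16. Of the 15, 14 were above 0, against 43.1% of all probe sets. Their median was 0.11 and that of all probe sets -0.03. Several single values rested on Wt replicate 2, while most signs stayed above 0 without it. Without it the Nr1d2 difference of 0.48 shrank to 0.0094, Per1 turned to 0.076, all 3 Clock probe sets turned negative (-0.25 to -0.065), and Dbp stood at 0.41. Then 12 of 15 were above 0 (40.1% of all), and the median was 0.08, against -0.04 over all. Of the 15, 0 passed with adjustment and 1 had an unadjusted p under 0.05 (5.11% of all). The 15 probe sets are not independent, since Per3 supplied 4 of them and Clock 3. In Per3 1460662_PM_at every SKM-Tg array lay above every Wt array, as in 1.31% of all probe sets, and for 0 clock probe sets did every one lie below (2.38% of all). The effect in SKM-Tg minus Wt, less that in SKM-KO minus C, ran from -0.30 to 0.52 over the 15 probe sets, with 11 above 0 (42.2% of all). Of these, 0 passed the threshold (0.00444% of all), and 0 had an unadjusted p under 0.05 (2.71% of all).

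**Figure D1:**
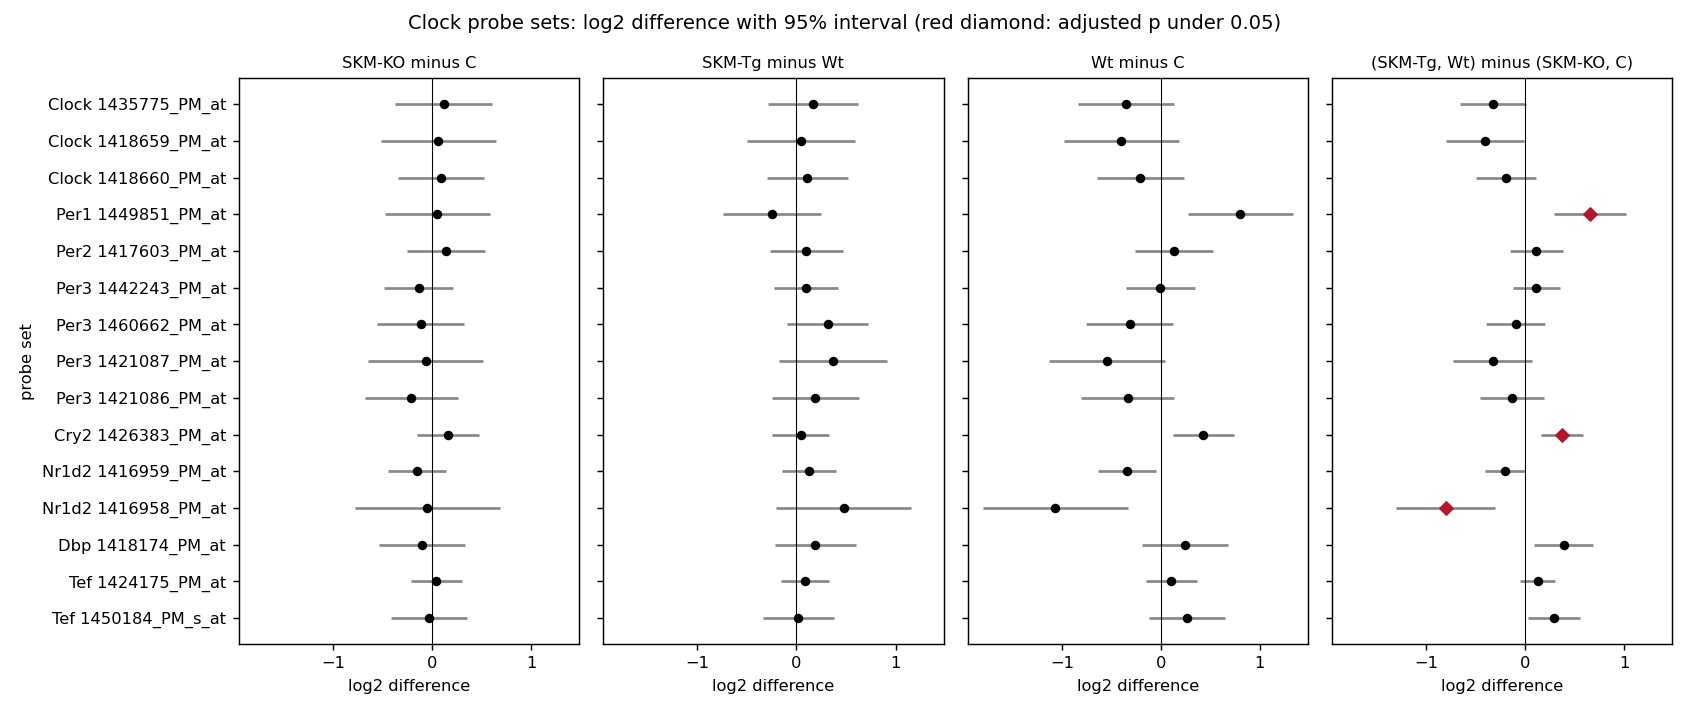
Log2 differences (x axis) of the 15 clock probe sets tested (rows), with 95% intervals from the limma fit, in 4 comparisons. Every interval in SKM-KO minus C and SKM-Tg minus Wt spans 0, and red diamonds mark Per1, Cry2 and 1 Nr1d2 probe set in the comparison of SKM-Tg and Wt with SKM-KO and C.

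The larger differences lay between the pairs of groups, as they did among all probe sets. For the clock probe sets the median absolute difference was 0.10 in SKM-KO minus C (0.06 over all) and 0.13 in SKM-Tg minus Wt (0.13 over all). It was 0.33 in Wt minus C (0.23 over all), and 0.29 for SKM-Tg and Wt against SKM-KO and C (0.18 over all). Wt and C, both control groups of males of the same stated strain and age, differed by -1.06 (Nr1d2) to 0.80 (Per1), with intervals from -1.80 to 1.33. With adjustment, 0 of 15 passed in limma (0.0178% of all). The smallest adjusted p was 0.161. Without adjustment, 4 had p under 0.05, namely Per1, Cry2 and both Nr1d2 probe sets, beside 25.8% of all probe sets. Of the 15 differences, 6 were above 0, against 53.5% of all, and the median was -0.21, against 0.03 over all. Without Wt replicate 2 the median was -0.03, Nr1d2 1416958_PM_at stood at -0.60 and Per1 at 0.48. Again 6 were above 0 (54.1% of all), and 3 had an unadjusted p under 0.05 (8.67% of all). In Per1 and Cry2 all Wt arrays lay above all C arrays (14% of all probe sets), and in both Nr1d2 probe sets all lay below (8.89% of all). When the mean of SKM-Tg and Wt was set against the mean of SKM-KO and C, 3 of 15 passed, beside 14% of all probe sets. Per1 and Cry2 were higher (5.77% of all were higher) and 1 Nr1d2 probe set was lower (8.26% of all were lower). The count stands close to that background and is no result about the clock genes as a set. By unadjusted p, 7 of 15 were under 0.05, against 37.8% of all, and 7 were above 0, against 52.7%. This comparison uses the same arrays as the others, and in 0 clock probe sets were the 7 SKM-Tg and Wt arrays separate from the 6 SKM-KO and C arrays (2.94% of all were separate upwards and 2.72% downwards).

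These 3 calls depended on single arrays. Without Wt replicate 2, Per1 had a difference of 0.49 (adjusted p = 0.0362), Nr1d2 of -0.57 (adjusted p = 0.0454) and Cry2 of 0.33 (adjusted p = 0.0579), while 7.95% of all probe sets passed. With SKM-Tg replicate 3 left out as well, Per1 was at 0.47, Nr1d2 at -0.50 and Cry2 at 0.30, and the adjusted p-values of 0.0562, 0.0622 and 0.0862 passed for none of them. When each of the 13 arrays was left out in turn, Per1 passed in 5 of the 13 fits, Nr1d2 in 3 and Cry2 in 2, with the sign kept in all. The number of clock probe sets called was 0 without any 1 of C replicates 1 to 3, SKM-KO replicates 2 and 3, Wt replicate 1 and SKM-Tg replicates 2 and 3. It was 1 without SKM-KO replicate 1 or SKM-Tg replicate 4, 2 without Wt replicate 2, 4 without SKM-Tg replicate 1 and 7 without Wt replicate 3. Markers of other cell types were read in the same comparison of lines. The 30 probe sets tested were of fat, macrophage, Schwann cell, endothelial, fibroblast, lymphocyte and liver markers. Of them, 0 passed upwards (5.77% of all probe sets) and 3 downwards (8.26% of all). Of these 3, 2 still passed without Wt replicate 2 (7.95% of all). The macrophage marker Cd163 was lower by a log2 difference of -1.03 (limma adjusted p = 0.0180), the fibroblast marker Lum by -0.85 (adjusted p = 0.0269) and the endothelial marker Tek by -0.59 (adjusted p = 0.0392). In Cd163 and Lum all 7 SKM-Tg and Wt arrays lay below all 6 SKM-KO and C arrays. The other 4 macrophage and 3 fibroblast probe sets tested, and the other endothelial ones, did not pass. Some lay higher, such as Cd68 by 0.50 (limma adjusted p = 0.0532) and Cdh5 by 0.28 and 0.23. Above 0 were 3 of 5 macrophage, 1 of 4 fibroblast and 3 of 6 endothelial probe sets tested. The log2 summed signal of the 6 macrophage markers was 7.87 to 8.53 in SKM-Tg, 8.20 to 8.68 in Wt, 8.42 to 8.64 in SKM-KO and 8.04 to 8.44 in C. For the 6 fibroblast markers it was 11.57 to 12.08 in SKM-Tg, 11.76 to 12.33 in Wt, 12.00 to 12.35 in SKM-KO and 11.84 to 12.18 in C. For the 5 endothelial markers it was 10.83 to 11.40 in SKM-Tg, 11.35 to 11.42 in Wt, 11.12 to 11.23 in SKM-KO and 11.19 to 11.26 in C. The log2 summed signal of the 3 of 6 fat markers with a probe set (Adipoq, Lep and Retn) was 8.64 to 10.5 in SKM-Tg, 7.01 to 9.44 in Wt, 6.84 to 8.97 in SKM-KO and 6.88 to 7.18 in C. The fat markers did not pass (Adipoq 2.11, adjusted p = 0.0542, and Retn 0.88, adjusted p = 0.0695). The part of these cell types in the clock values was not tested. In bulk muscle a change in the number of cells of a type and one in RNA per cell cannot be told apart.

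**Figure D2:**
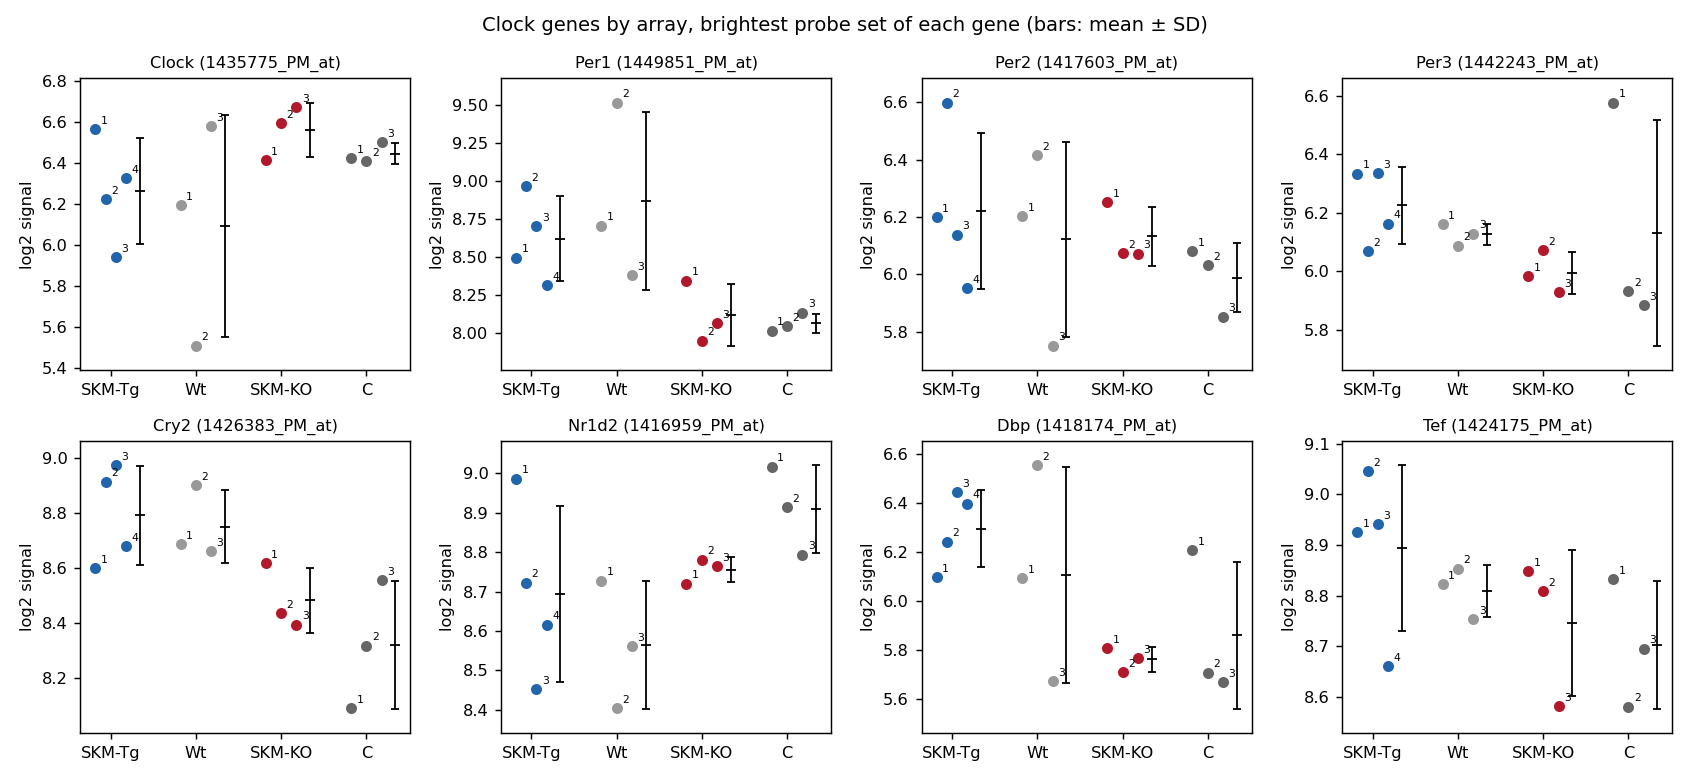
Log2 signal (y axis) of the brightest probe set of each clock gene tested, by group (x axis), with each array as a numbered point and the group mean ± SD beside it. Per1 lies between 8.31 and 9.51 in SKM-Tg and Wt and between 7.95 and 8.34 in SKM-KO and C, while Wt replicate 2 is the lowest point for Clock and the highest for Per1 and Dbp.

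Clock, the DNA-binding activator of the loop, was read by 3 probe sets above the filter. Its brightest, 1435775_PM_at, read 6.57, 6.22, 5.94 and 6.33 in SKM-Tg, 6.19, 5.51 and 6.58 in Wt, 6.41, 6.60 and 6.67 in SKM-KO, and 6.43, 6.41 and 6.50 in C. The SKM-KO and C arrays lay within a narrow band, and Wt spanned that band and a value far below it. The group means were 6.26 ± 0.26 in SKM-Tg (SD, n = 4), 6.09 ± 0.54 in Wt, 6.56 ± 0.13 in SKM-KO and 6.45 ± 0.05 in C (SD, n = 3 each). SKM-KO minus C was 0.12 (SE 0.22) and SKM-Tg minus Wt was 0.17 (SE 0.21). The other two tested probe sets had the same order of Wt below SKM-Tg below C below SKM-KO, and no neighbours in that order differed beyond their spread. The fourth Clock probe set, 1439314_PM_at, was below the filter and read 4.14, 4.04, 3.29 and 3.59 in SKM-Tg, against 3.33 to 3.57 in Wt, 3.54 to 3.61 in SKM-KO and 3.41 to 3.56 in C.

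Per1, the Period gene that also responds within hours to glucocorticoid hormone, had 1 probe set. It read 8.49, 8.96, 8.70 and 8.31 in SKM-Tg, 8.70, 9.51 and 8.38 in Wt, 8.34, 7.95 and 8.06 in SKM-KO, and 8.02, 8.05 and 8.13 in C. The 3 Wt arrays were all above the 3 C arrays, while SKM-Tg replicate 4 lay just below SKM-KO replicate 1. SKM-Tg and Wt together stood 0.65 above SKM-KO and C (SE 0.17, limma adjusted p = 0.0346). Within the pairs the differences were -0.25 for SKM-Tg minus Wt (SE 0.23) and 0.05 for SKM-KO minus C (SE 0.24). From high to low the group means were 8.87 in Wt, 8.62 in SKM-Tg, 8.12 in SKM-KO and 8.07 in C, and each pair of neighbours in that order overlapped by at least 1 array.

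Per2, another inhibitor of Clock and Arntl, was read above the filter by 1417603_PM_at. Its values were 6.20, 6.60, 6.14 and 5.95 in SKM-Tg, 6.20, 6.42 and 5.75 in Wt, 6.25, 6.07 and 6.07 in SKM-KO, and 6.08, 6.03 and 5.85 in C. The 4 groups overlapped, and the differences were 0.10 for SKM-Tg minus Wt (SE 0.17) and 0.14 for SKM-KO minus C (SE 0.18). The dimmer probe set 1417602_PM_at, below the filter, was split among the SKM-Tg animals, at 5.09 and 5.42 in replicates 1 and 2 and 4.08 and 4.13 in replicates 3 and 4. It read 3.90 to 4.12 in Wt, 4.29 to 4.64 in SKM-KO and 4.20 to 4.32 in C. A further probe set that carried the symbol Per2 together with another was left out.

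Per3, the third Period gene, had 4 probe sets above the filter, and C replicate 1 was the highest of the 13 arrays in each of them. For 1421087_PM_at the signal was 6.23, 6.30, 5.73 and 5.69 in SKM-Tg, 5.37, 5.47 and 6.02 in Wt, 6.38, 6.05 and 5.87 in SKM-KO, and 6.74, 6.04 and 5.71 in C. The spread within C (SD 0.53) was larger than any difference between groups in the pairs compared within a line, 0.37 for SKM-Tg minus Wt (SE 0.25) and -0.07 for SKM-KO minus C (SE 0.27). For 1442243_PM_at, SKM-KO minus C was -0.14 with all arrays and 0.086 without C replicate 1. The probe set 1460662_PM_at read 6.32, 6.19, 5.98 and 6.07 in SKM-Tg, above the 5.93, 5.60 and 5.94 of Wt, a difference of 0.32 (95% interval -0.09 to 0.73). The fifth Per3 probe set, 1441445_PM_at, was below the filter at 3.26 to 3.80 in all arrays.

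Cry1 and Cry2 encode the cryptochromes, the partners of the Period proteins in repression. Cry1 had 1 probe set, below the filter, which read 3.62 to 4.03 over the 13 arrays, with all groups overlapping. Cry2 was bright, at 8.60, 8.91, 8.97 and 8.68 in SKM-Tg, 8.69, 8.90 and 8.66 in Wt, 8.62, 8.44 and 8.39 in SKM-KO, and 8.09, 8.32 and 8.56 in C. SKM-KO replicate 1 overlapped the SKM-Tg arrays, and C replicate 1 was the lowest of all 13. SKM-Tg and Wt stood 0.37 above SKM-KO and C (SE 0.10, limma adjusted p = 0.0369). SKM-Tg minus Wt was 0.04 (95% interval -0.25 to 0.33) and SKM-KO minus C was 0.16 (-0.15 to 0.47).

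Nr1d2, the heme-binding repressor of Arntl, was read by 2 probe sets that differed in size of effect. The dimmer, 1416958_PM_at, read 7.05, 6.88, 6.28 and 6.56 in SKM-Tg, 6.32, 5.28 and 7.04 in Wt, 7.03, 7.46 and 7.22 in SKM-KO, and 7.22, 7.30 and 7.32 in C. SKM-KO and C lay close together, and the SKM-Tg and Wt arrays reached from that level to far below it, with Wt replicate 2 lowest. Component 1 of all probe sets tested held 62.7% of the variance. Its scores were 0.72 in Wt replicate 2, 0.33 in SKM-Tg replicate 3, 0.22 in Wt replicate 1 and 0.16 in SKM-Tg replicate 4. Those were also the lowest arrays of this probe set, and every other array scored 0.05 or below. The part of component 1 in the Nr1d2 values was not tested. SKM-Tg and Wt stood below SKM-KO and C by a log2 difference of -0.80 (SE 0.23, limma adjusted p = 0.0418). The brighter probe set, 1416959_PM_at, read 8.99, 8.72, 8.45 and 8.62 in SKM-Tg, 8.73, 8.40 and 8.56 in Wt, 8.72, 8.78 and 8.76 in SKM-KO, and 9.02, 8.91 and 8.79 in C. It had the same sign but a smaller difference of -0.20 (SE 0.09), which did not pass (adjusted p = 0.129). SKM-KO minus C was -0.05 for the dimmer (SE 0.34) and -0.15 for the brighter (SE 0.13), and SKM-Tg minus Wt was 0.48 (SE 0.32) and 0.13 (SE 0.13). Without Wt replicate 2 the differences from Wt were 0.0094 for the dimmer and 0.050 for the brighter.

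Dbp and Tef are PAR bZIP factors that pass the rhythm on through D-boxes such as those in the Per3 stretch above. Dbp, whose transcript has one of the widest daily swings of the clock genes, read 6.10, 6.24, 6.44 and 6.40 in SKM-Tg, 6.09, 6.55 and 5.67 in Wt, 5.81, 5.71 and 5.77 in SKM-KO, and 6.21, 5.71 and 5.67 in C. The SKM-KO arrays lay within 0.10 of each other, while C replicate 1 and Wt replicate 3 each lay in the range of the other line. All 4 SKM-Tg arrays were above all 3 SKM-KO arrays. That pair of groups differs in both manipulation and line and was not among the comparisons made. The share of all probe sets with such a separation was not computed, so it is no result about Dbp. SKM-Tg and Wt exceeded SKM-KO and C by 0.39 (SE 0.14), which did not pass (limma adjusted p = 0.0680). This depended on the setting. It passed with 1 mean per line in place of 1 per group, an unplanned fit (0.40, limma adjusted p = 0.0472). It also passed with array weights (0.43, limma adjusted p = 2.4e-04) and in 1 of the 13 fits with an array left out. SKM-KO minus C was -0.10 (SE 0.20) and turned to 0.073 without C replicate 1, and SKM-Tg minus Wt was 0.19 (SE 0.19). All arrays together spanned 0.88 for Dbp.

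The 2 Tef probe sets moved less. Tef 1450184_PM_s_at read 8.12, 8.31, 8.51 and 8.09 in SKM-Tg, 8.30, 8.55 and 7.87 in Wt, 8.02, 7.99 and 7.81 in SKM-KO, and 8.23, 7.80 and 7.90 in C. Its high arrays (Wt replicate 2, SKM-Tg replicate 3) and its high C replicate were those of Dbp. The brighter 1424175_PM_at stayed between 8.58 and 9.05 in all arrays. SKM-Tg minus Wt was 0.02 and 0.08, and SKM-KO minus C was -0.04 and 0.04, for the s_at and the brighter probe set in turn. Over both lines the differences were 0.29 (adjusted p = 0.105) and 0.13 (adjusted p = 0.267) for SKM-Tg and Wt against SKM-KO and C.

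**Figure D3:**
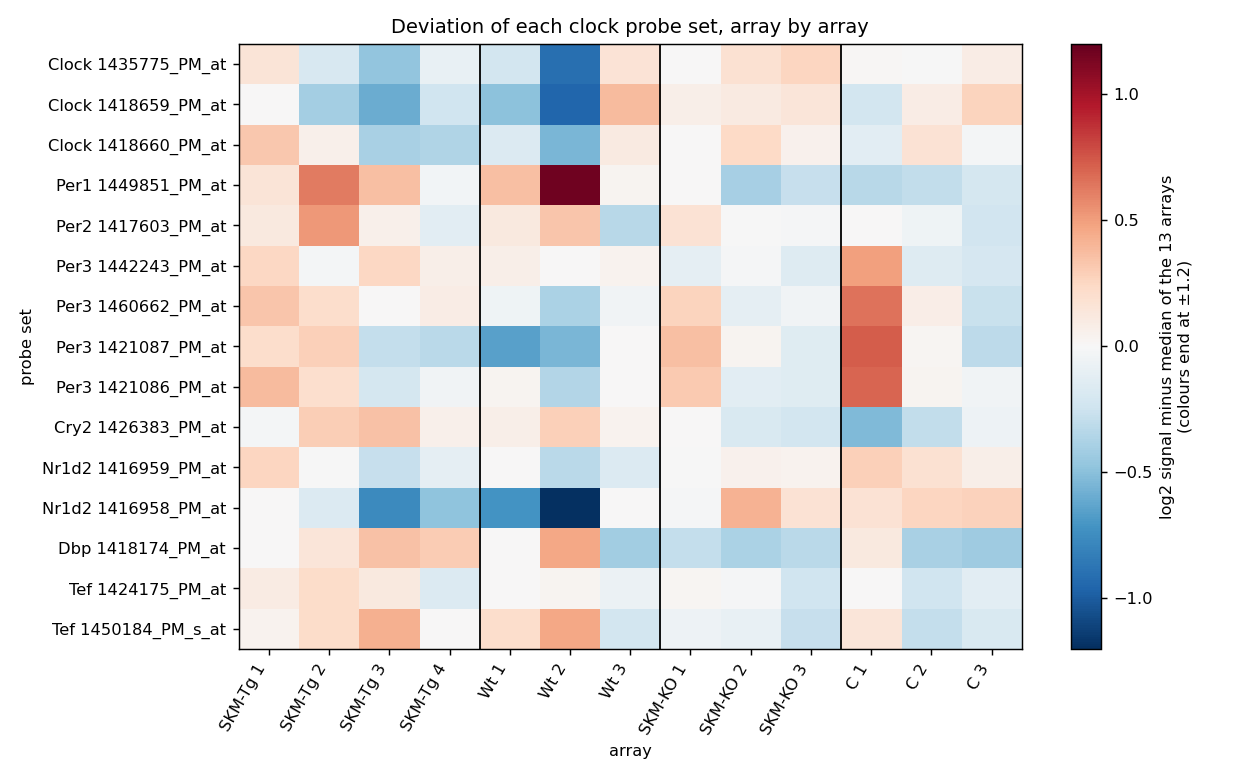
Log2 signal of the 15 clock probe sets (rows) in each array (columns), as the deviation from the median of the 13 arrays, red above and blue below, with colours ending at ±1.2. C replicate 1 stands out in all 4 Per3 rows, and Wt replicate 2 and SKM-Tg replicate 3 share low Clock and Nr1d2 1416958_PM_at and high Tef 1450184_PM_s_at and Dbp. Wt replicate 2 and SKM-Tg replicate 3 also have the widest interquartile range around the median array over all probe sets (0.81 and 0.42).

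Array by array, 3 animals lay farthest from the rest in the clock genes. Wt replicate 2 was the highest or lowest of the 13 arrays in 10 of 15 clock probe sets, beside its 62.9% of all probe sets, so its clock values share an array-wide departure. C replicate 1 was extreme in 6 of 15, beside 14.0% of all probe sets. These were the 4 Per3 probe sets tested, Cry2 and Nr1d2 1416959_PM_at, so most of that count came from a single gene. In the other 11 arrays the number was 0 to 2. The median absolute deviation from the median array over the clock probe sets was 0.46 in Wt replicate 2 (0.404 over all probe sets), 0.35 in SKM-Tg replicate 3 (0.212 over all) and 0.22 in C replicate 1 (0.0859 over all). In C replicates 2 and 3 it was 0.18 and 0.20 (0.0873 and 0.0765 over all). The clock deviation thus stood well above that of all probe sets in each of the 3 C arrays, and close to it in Wt replicate 2. This was not particular to C. SKM-Tg replicates 1 and 2 had 0.15 and 0.21 (0.0954 and 0.123 over all), and SKM-KO replicate 3 had 0.16 (0.0952 over all). In SKM-KO replicate 1, Wt replicates 1 and 3 and SKM-Tg replicate 4 the clock deviation was the smaller.

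**Figure D4:**
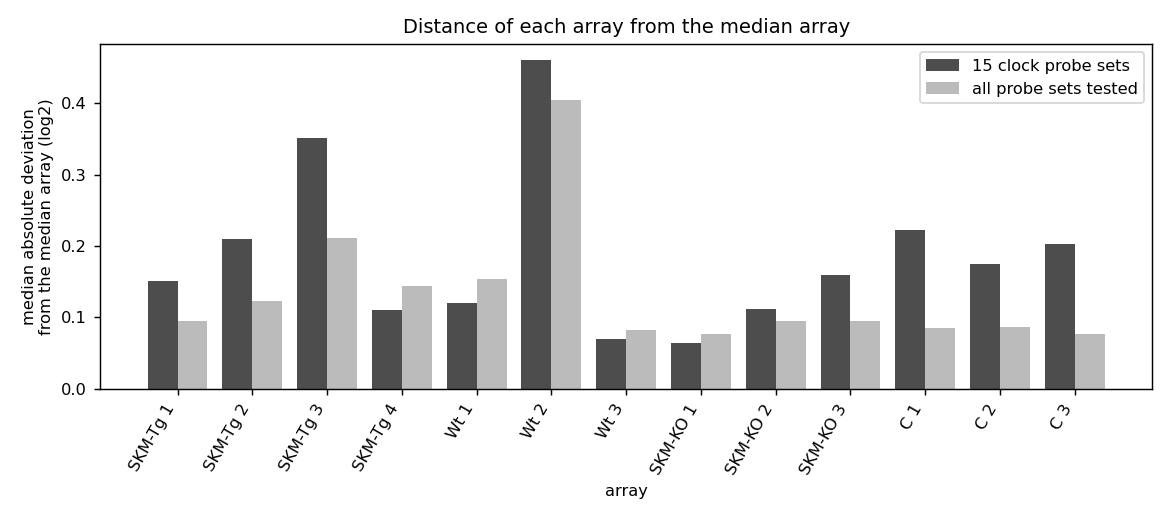
Median absolute deviation from the median array (y axis, log2) for each of the 13 arrays (x axis), over the 15 clock probe sets (dark bars) and over all 22519 probe sets tested (light bars). The bars of Wt replicate 2 are high in both (0.46 and 0.404). In the 3 C arrays the clock bar is well above the other (0.22 against 0.0859 in C replicate 1), as also in SKM-Tg replicate 2 (0.21 against 0.123).

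The animal C replicate 1 was the highest or lowest array in several clock transcripts, beside 14.0% of all probe sets. Beside the highest Per3, it had the lowest Cry2 (8.09) and the lowest signal in both probe sets of Arntl, the partner of Clock (6.61 and 5.62). It was also lowest of the 13 for Nfil3, a repressor at D-boxes that opposes Dbp (8.15, against 9.13 and 9.19 in C replicates 2 and 3). Arntl and Nfil3 are picked from the list of further clock genes described below. In most tested probe sets of that list C replicate 1 was neither highest nor lowest. SKM-Tg replicates 1 and 2 were instead high for Arntl 1457740_PM_at, at 7.37 and 7.71, against 6.23 and 6.09 in SKM-Tg replicates 3 and 4, 6.16 to 6.39 in Wt, 5.92 to 6.66 in SKM-KO and 5.62 to 6.88 in C. The brighter Arntl probe set, 1425099_PM_a_at, did not show this split. There SKM-Tg read 6.97 to 7.21, with SKM-Tg replicate 3 the highest of the 13 arrays. The same 2 SKM-Tg animals had the high values of the dim Per2 and Clock probe sets given above, which lay below the filter. Among the tested probe sets, Clock 1418660_PM_at split the same way (5.99 and 5.72 against 5.28 and 5.31). In Per2 1417603_PM_at replicates 1 and 3 lay close (6.20 and 6.14). In Clock 1435775_PM_at and 1418659_PM_at replicate 4 lay above replicate 2. These arrays are named because of their values, so no test was made of them.

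**Figure D5:**
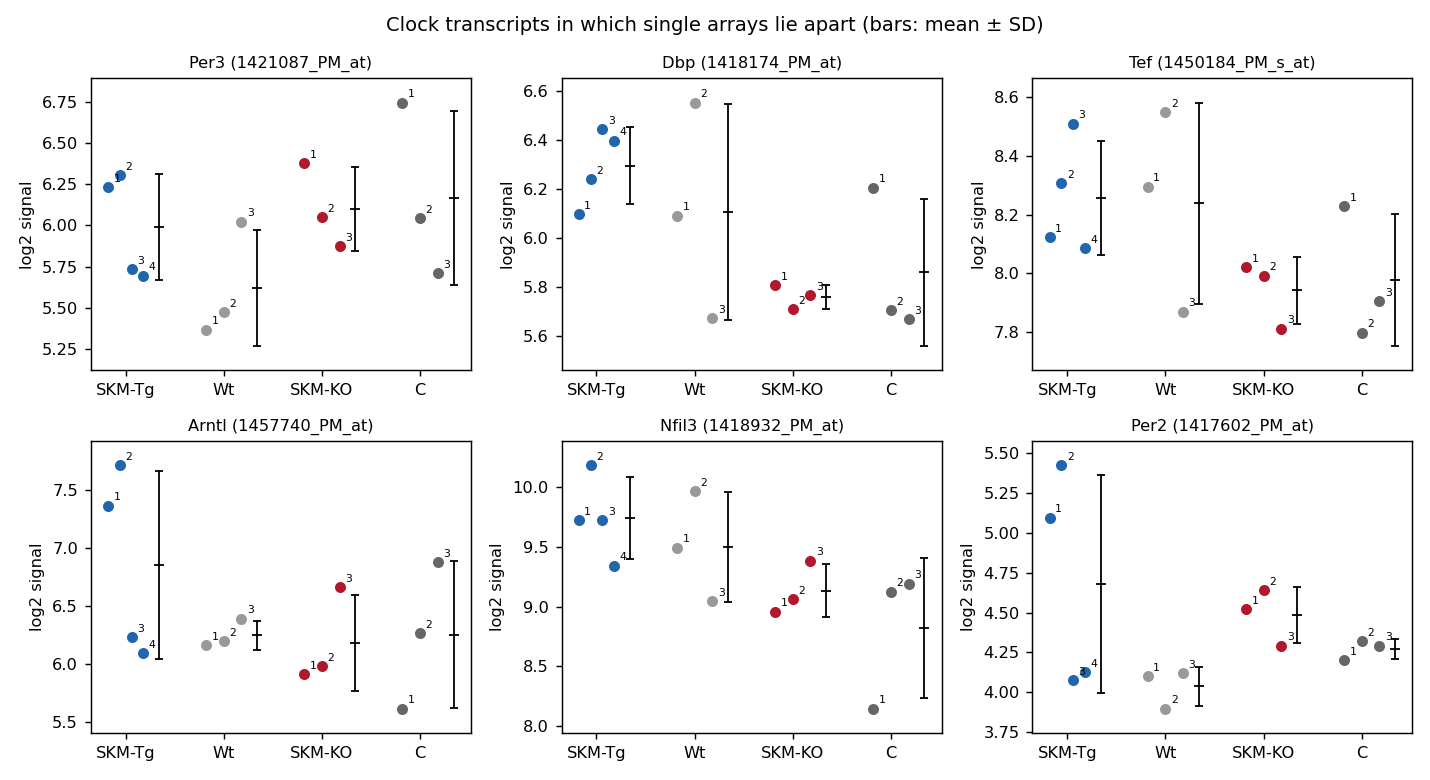
Log2 signal (y axis) by group (x axis) for 6 clock transcripts, with arrays as numbered points and group means ± SD. The tested probe set with the largest residual SD is shown for each gene but Per2, whose probe set here lies below the filter. C replicate 1 is high for Per3 (6.74) and low for Arntl (5.62) and Nfil3 (8.15), and SKM-Tg replicates 1 and 2 are high for Arntl (7.37 and 7.71) and Per2 1417602_PM_at (5.09 and 5.42).

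The rest of the clock machinery was counted as a list of 21 further genes (partners of Clock, ROR receptors, kinases, ubiquitin ligases and outputs). Probe sets were named for 19 of them, and 31 probe sets of 17 genes were tested. In limma 0 of 31 passed in SKM-Tg minus Wt, in SKM-KO minus C, in the difference of these effects and in Wt minus C. By unadjusted p, 3 of 31 were under 0.05 in SKM-Tg minus Wt (6.43% of all probe sets) and 0 in SKM-KO minus C (0.44% of all). Between SKM-Tg and Wt on one side and SKM-KO and C on the other, 5 of 31 passed, all of them higher, beside 14% of all probe sets passing and 5.77% passing upwards. The count passing is close to the share passing in either direction and above the share passing upwards, and the list was not tested as a set. They were Arntl 1425099_PM_a_at (0.30, SE 0.08), Npas2 1421036_PM_at (0.26, SE 0.07), the casein kinases Csnk1d 1418889_PM_a_at (0.38, SE 0.08) and Csnk1e 1417176_PM_at (0.45, SE 0.09), which phosphorylate the Period proteins, and Fbxw11 1425461_PM_at (0.21, SE 0.06), a ubiquitin ligase subunit. Without Wt replicate 2, 3 of 31 passed (7.95% of all). The list median was 0.14, against 0.02 over all probe sets.

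Csnk1e 1417176_PM_at read 8.36, 8.26, 8.79 and 8.63 in SKM-Tg, 8.48, 8.69 and 8.35 in Wt, 8.01, 8.03 and 7.97 in SKM-KO, and 8.04, 8.14 and 8.15 in C. All SKM-Tg and Wt arrays lay above all SKM-KO and C arrays, as they did in 3 of 31 probe sets of the list and in 2.94% of all probe sets. Other probe sets of the same genes were closer together, such as Csnk1d 1437690_PM_x_at with a difference of -0.02 and Npas2 1421037_PM_at with 0.05. Among the outputs, Nfil3 read 9.72, 10.18, 9.72 and 9.34 in SKM-Tg, 9.49, 9.96 and 9.05 in Wt, 8.96, 9.06 and 9.38 in SKM-KO, and 8.15, 9.13 and 9.19 in C. Its difference of 0.64 (SE 0.20) just missed the threshold (adjusted p = 0.0525). The PAR bZIP factor Hlf (1434735_PM_at) was at 6.61, 6.72, 6.27 and 6.52 in SKM-Tg and 6.38, 5.83 and 5.89 in Wt, a difference of 0.50 with an unadjusted p of 0.0055 that did not pass with adjustment. Usp2, a deubiquitinase with a daily rhythm, differed between the lines by 0.32 and 0.40 in its 2 probe sets, Ciart, a repressor of Clock and Arntl, by 0.14, and Bhlhe41, an E-box repressor, by -0.02 and 0.26. None of these passed.

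Per1 is also a target of the glucocorticoid receptor, so 8 genes induced by glucocorticoid were set beside it, 7 of them with probe sets. In the comparison of SKM-Tg and Wt with SKM-KO and C, 3 of 16 probe sets passed, all higher, namely Fkbp5 1448231_PM_at (0.46, SE 0.14), Tsc22d3 1425281_PM_a_at (0.58, SE 0.16) and Mt1 1422557_PM_s_at (0.84, SE 0.21), and 0 of 16 passed without Wt replicate 2. Of all probe sets 14% passed, 5.77% passed upwards, and 7.95% passed without that array. The count is near the share passing in either direction and above the share passing upwards, but it fell to 0 without Wt replicate 2. In SKM-Tg minus Wt and in SKM-KO minus C 0 of 16 passed, although Fkbp5, which encodes a chaperone of the receptor, was 0.53 higher in SKM-KO than in C in 1448231_PM_at by unadjusted p (0.0211). The other Fkbp5 probe set tested, 1416125_PM_at, was 0.57 higher in SKM-KO. Unadjusted limma p-values under 0.05 were found for 2 of 16, both of Fkbp5, beside 0.44% of all probe sets. C replicate 1 was the lowest of the 13 arrays in 1448231_PM_at, at 8.81. It was also lowest in 1416125_PM_at, Tsc22d3 1420772_PM_a_at, Errfi1 and both probe sets of Zbtb16 and Mt1. In the other Tsc22d3 probe sets, Sgk1 and Klf9, another array was lowest. Of all probe sets, C replicate 1 was highest or lowest in 14.0%. The part of glucocorticoid in the Per1 values was not tested.

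Within groups, the clock probe sets varied more than most. The residual SD of the 15, after removal of group means, had a median at the 73.2 percentile of all probe sets tested, and 12 of 15 were above the 50 percentile. The median was at 67.6 in SKM-Tg and Wt alone, 80.4 in SKM-KO and C alone, and 73.0 without Wt replicate 2. Nr1d2 1416958_PM_at was at the 96.2 percentile, Per3 1421087_PM_at at 89.7 and Clock 1418659_PM_at at 89.4, while Tef 1424175_PM_at was at 21.6. This is a description of probe sets that share genes and arrays.

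After group means were removed, Dbp was compared with every other probe set over the 13 arrays by Pearson's r, as a description without a test. The probe sets of a gene did not all run alike. Tef 1450184_PM_s_at had an r of 0.85 (0.77 without Wt replicate 2), but Tef 1424175_PM_at had 0.24 (0.21). The 3 Clock probe sets ran opposite, with r of -0.92, -0.82 and -0.81 (-0.85, -0.74 and -0.60 without that array). Nr1d2 1416958_PM_at was at -0.86 (-0.73), while Nr1d2 1416959_PM_at was at -0.31 (-0.05). The 4 Per3 probe sets lay at 0.42, 0.10, -0.02 and -0.05 (0.65, 0.48, 0.31 and 0.08). Per1 was at 0.60 (0.13), Per2 at 0.52 (0.27) and Cry2 at 0.09 (-0.22). The 2 Arntl probe sets were at -0.64 and -0.52 (-0.53 and -0.68). Large values of r were common in these data. Among all probe sets, the r of the 3 Clock probe sets over 13 arrays lay at the 0.75, 9.5 and 10.3 percentile. Nr1d2 1416958_PM_at was at the 4.8 percentile and the Arntl probe sets at 23.2 and 29.2. Per2 was at 70.8, Per1 at 76.3 and Tef 1450184_PM_s_at at 98.0. Across all probe sets, the genes most like Dbp were H2-Ab1 (r = 0.97), Mlc1 (0.97), Slc4a1 (0.96) and Cd74 (0.96), and those most opposite were Ifrd1 (-0.98) and Tmem38b (-0.98). Of the 20 genes most like or most opposite to Dbp, 12 were among the 20 when Wt replicate 2 was left out. The arrays also share one dominant axis, component 1 with 62.7% of the variance, and its part in these values of r was not tested.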

How the data were processed

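The deposited values are log2 signals, which the authors made with RMA per the submitters' processing notes, with no version given. RMA corrects background, scales arrays to a common distribution and summarises probes, so levels are relative. The file held 45141 probe sets, of which 104 controls were set aside, with values from 2.14 to 13.21 and array medians from 4.85 to 4.94. Probe sets were named through the platform annotation, those with 1 symbol only. The 22519 probe sets with a mean of at least 4.90 entered 1 linear model over 13 arrays with a mean for every group (limma 3.58.1, R 4.3.3). Empirical Bayes added 3.49 prior to 9 residual degrees of freedom. Tests were two-sided, with Benjamini-Hochberg adjustment over all probe sets and a threshold of 0.05. SE and 95% intervals come from that fit. The number of arrays limits the precision, and no batch, strip or scan date is given. The fit was tested on simulated data, drawn as independent normal values with 1 SD per probe set in all groups. The arrays themselves differ in spread and share a dominant component, so the simulation cannot tell how the fit behaves under those features. Named genes were the 10 members, the genes of the lists that passed and those chosen for the lists. Members and lists were chosen with earlier results of these data known. Labels give 1 animal per array. Alternatives covered scaling, filter, unit of test, variance model, array weights, groups in the fit and each array left out. Unplanned were a fit with 1 mean per line and a fit without Wt replicate 2 and SKM-Tg replicate 3.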

Additional observations from a re-analysis of the deposited data

How the results depend on the processing

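No paired analysis was possible because the labels give animal numbers that no 2 groups share. Over the clock genes and called genes, 956 alternative values were computed: 860 kept their direction and side of the threshold, 41 reversed, 34 were lost and 21 gained. SKM-KO minus C had 3 calls over all probe sets (1 with the brightest probe set per gene, 1 to 3 with an array left out). SKM-Tg minus Wt had 0 calls, against 5634 with array weights (2 of them clock probe sets) and 0 to 25 with an array left out. The difference of these effects had 1 call, against 2 without a filter, 2 with the brightest probe set, 1395 with array weights, 2 without Wt 2 and SKM-Tg 3, and 1 to 2 with an array left out. Wt minus C had 4 calls, against 1 with the brightest probe set, 14869 with array weights (12 clock), 0 with only these groups fitted, 2 without Wt 2 and SKM-Tg 3, and 1 to 8384 with an array left out (0 to 6 clock). The comparison of both lines had 3158 calls, against 1634 without a filter (1 clock), 1756 with the brightest probe set, 13224 with array weights (9 clock), 858 without Wt 2 and SKM-Tg 3 (0 clock), and 22 to 9849 with an array left out (0 to 7 clock). The weights were estimated in a run that stopped before convergence. For likeness to Dbp, 4 of the 20 genes were shared when deviations were taken from the mean of all arrays, 7 with Spearman's rho and 12 without Wt 2. With array weights the sign turned for Per1 in SKM-KO minus C (-0.024), Nr1d2 1416959_PM_at in SKM-Tg minus Wt (-0.0083), Cry2, Per1 and Clock in the difference of effects (0.082, 0.022 and -0.042) and Per3 in Wt minus C (0.16). Without Wt 2 and SKM-Tg 3, chosen after seeing the data, it turned for Per1 and Clock in SKM-Tg minus Wt (0.048 and -0.015), Clock and Per2 in the difference (-0.13 and 0.13) and Per3 and Per2 in Wt minus C (0.014 and -0.013). Per3 in Wt minus C was 0.0070 after median centring and 0.0038 after quantile normalization. With each array left out, signs turned within these ranges: in SKM-KO minus C, Tef 1424175_PM_at -0.018 to 0.13, Per1 -0.059 to 0.14, Per3 1442243_PM_at -0.26 to 0.086, Dbp -0.20 to 0.073 and Nr1d2 1416958_PM_at -0.16 to 0.057. In SKM-Tg minus Wt they were Cry2 -0.019 to 0.12, Per1 -0.49 to 0.076, Clock -0.12 to 0.41, Per2 -0.087 to 0.25 and Dbp -0.027 to 0.41. In the difference they were Tef -0.042 to 0.12, Per1 -0.54 to 0.022, Clock -0.24 to 0.30 and Per2 -0.23 to 0.10, and in Wt minus C Per3 -0.13 to 0.22 and Per2 -0.013 to 0.32. The cause of these shifts was not tested. Groups of 3 and 4 arrays limit every comparison, the sampling hour is unknown, Cry1 lay below the filter, and Nr1d1 had no named probe set.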
